A study of Rattus norvegicus with 8 samples.

Results

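AMPA and NMDA receptors are the ion channels through which glutamate excites neurons at most synapses of the hippocampus. An AMPA receptor is a tetramer of the subunits GluA1 to GluA4, encoded by Gria1, Gria2, Gria3 and Gria4, and carries the fast current. An NMDA receptor pairs the obligatory subunit GluN1 (Grin1) with GluN2 subunits (Grin2a to Grin2d) or with GluN3A (Grin3a), and admits calcium when glutamate and a co-agonist bind while the membrane is depolarised. In the developing forebrain, Grin2b comes first and Grin2a is added as synapses mature. The levels of these 10 genes were followed in rat hippocampal neurons that had received an shRNA against Sirt6, which encodes a nuclear NAD-dependent deacylase of the sirtuin family.

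The genes were found by their symbol in the array files, which gave 21 probes of 60 bases among 45598 non-control probes, 9 for AMPA and 12 for NMDA subunits. All 21 were well above background on enough arrays to be tested, as were 28620 probes in all. Gria2 and Grin2b had 1 probe each, and the other 8 genes had from 2 to 4.

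The study measured total RNA of primary hippocampal neurons on 8 one-colour Agilent arrays, 4 labelled Sirt6 shRNA and 4 labelled scrambled shRNA, the control. Both groups were prepared from Wistar rats at postnatal day 0-1 and were transduced with shRNA lentivirus (multiplicity of infection 6) on day 3 in vitro, then kept for 7 days and harvested on day 10 in vitro. The series' purpose, per its design text, was to learn what SIRT6 does in the shaping of neurons. Whether the samples of a group were separate cultures is not stated in the labels. The p-values therefore weigh a difference only against the spread among these samples, a spread that may be technical. No second shRNA against Sirt6 was analysed here.

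The shRNA target was lower, as labelled. The Sirt6 probe had processed signals of 486, 489, 484 and 446 on the Sirt6 shRNA arrays, against 1337, 1318, 1347 and 1343 on the scrambled arrays. After scaling, 34.6% of the scrambled level remained (log2 difference -1.53 ± 0.041 SE, limma adjusted p = 7.73e-06). On the 8 arrays 60.4% to 65.3% of probes were well above background. The Sirt6 shRNA arrays filled row 2 and the scrambled arrays row 1 of 1 slide, and the row and the group therefore cannot be told apart.

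Levels below are log2 processed signals relative to the 75th percentile of the same array, so negative values are probes dimmer than that percentile. Differences are Sirt6 shRNA minus scrambled, with the SE of limma's fit over all probes, and a probe was called at an adjusted p under 0.05. Levels of different probes are not comparable, since each probe binds its target with its own efficiency.

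Gria3 and Grin2a were the receptor genes with lower signal under the Sirt6 shRNA, and no receptor gene was called higher. Of the 21 probes, 5 were called and all 5 were lower, that is 3 of the 4 Gria3 probes and both Grin2a probes. These falls were modest, between -0.33 and -0.62 on the log2 scale. The 5 called probes are 23.8% of the set, against 28.4% of all probes tested (14.1% called higher and 14.4% called lower), so the share of called probes was not above the array's background. The same 5 were the probes whose groups did not overlap, 23.8% against 32.1% of all probes. The median difference over the 21 probes was -0.08, against 0.02 over all probes, and the median absolute difference was 0.13 against 0.14. Counted by the brightest probe of each gene, 2 of 10 genes were called, both lower, against 29.5% of genes called on the array (15.1% higher and 14.4% lower). The AMPA probes had 3 of 9 called and the NMDA probes 2 of 12.

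**Figure D1:**
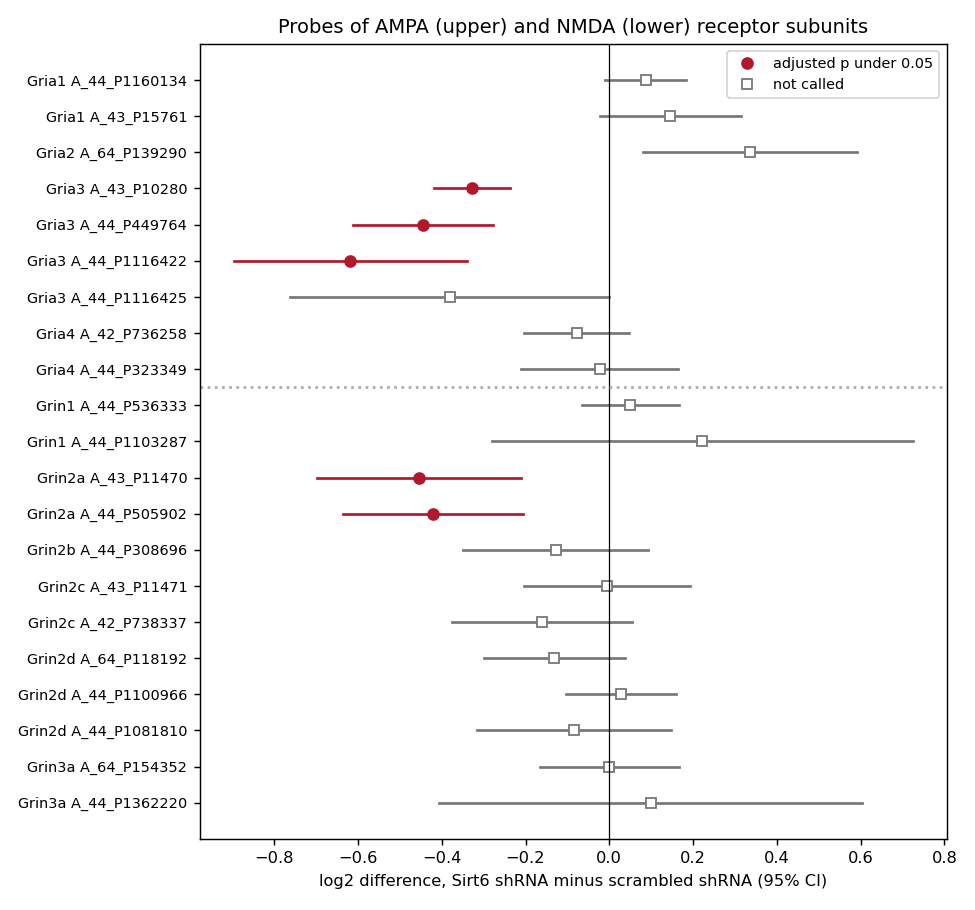
Log2 difference, Sirt6 shRNA minus scrambled shRNA, for each of the 21 receptor probes with its 95% confidence interval from limma. Filled red circles are the 5 probes called at an adjusted p under 0.05, 3 of Gria3 and 2 of Grin2a, all below 0, and open squares are the 16 others.

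The probe sequences show which stretch of an mRNA was read. They are printed 5′ to 3′ from the array files for 2 Gria3 probes, whose signal fell, and for a probe of Gria1, its relative in the same family. Capitals mark the bases that are the same where the Gria3 and Gria1 probes overlap in an ungapped alignment, 31 of 37.

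Gria3 A_44_P1116422: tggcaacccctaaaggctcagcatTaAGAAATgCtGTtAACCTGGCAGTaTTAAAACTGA

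Gria1 A_43_P15761: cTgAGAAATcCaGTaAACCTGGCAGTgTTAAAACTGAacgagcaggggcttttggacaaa

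Gria3 A_44_P449764: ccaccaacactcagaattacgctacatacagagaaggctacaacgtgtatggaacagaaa

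In the files' build, rn4, the Gria3 probes lie on the minus strand of chromosome X. A_44_P449764 covers chrX:3459714-3459773. A_44_P1116422 spans chrX:3477211-3477826, which is 616 bases of genome for 60 bases of probe, so it reads across a splice junction. The files give no position for the Gria1 probes. No annotation of rn4 was used, so exon and UTR were not looked up.

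Gria3 encodes GluA3, which in hippocampal neurons assembles mainly with GluA2. Its brightest probe, A_43_P10280, had log2 levels of 1.28, 1.17, 1.20 and 1.20 on the Sirt6 shRNA arrays, against 1.58, 1.51, 1.55 and 1.53 on the scrambled arrays. All 4 Sirt6 shRNA arrays lay below all 4 scrambled arrays, and the gap between the groups was wider than either group's range. The difference was -0.33 ± 0.039 (adjusted p = 0.00077), a signal 79.7% of the scrambled one. In processed signal, the means were 768 ± 34 and 937 ± 27 (SD, n = 4 each) for Sirt6 shRNA and scrambled.

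The second called Gria3 probe, A_44_P449764, had levels of -1.41, -1.66, -1.48 and -1.66 on the Sirt6 shRNA arrays, against -1.03, -1.14, -1.21 and -1.06 on the scrambled arrays. Again the groups did not overlap, and Sirt6 shRNA replicate 1 lay nearest to the scrambled arrays. The difference was -0.44 ± 0.072 (adjusted p = 0.0032), or 73.5% of the scrambled signal.

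The junction probe A_44_P1116422, which the files assign to Gria3 transcript variant 2, had levels of -4.03, -3.99, -3.92 and -4.38 on the Sirt6 shRNA arrays, against -3.24, -3.43, -3.66 and -3.50 on the scrambled arrays. Here too every Sirt6 shRNA array lay below every scrambled array, but within-group spread was larger than for the other called Gria3 probes. The probe was dim, at a mean signal of 19.8 with the Sirt6 shRNA and 29.4 with the scrambled shRNA. The difference was -0.62 ± 0.12 (adjusted p = 0.0072), or 65.2% of the scrambled signal. This size depended on the background correction, since normexp gave -0.19 (adjusted p = 0.0076) and adding 16 to each signal gave -0.38 (adjusted p = 0.0031), both still called.

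The fourth Gria3 probe, A_44_P1116425, is assigned to the predicted variant X5 and lies at chrX:3497846-3497905. Its levels of -4.77, -5.06, -4.62 and -5.07 with the Sirt6 shRNA overlapped the scrambled levels of -4.63, -4.06, -4.55 and -4.75. The difference of -0.38 ± 0.17 was not called (95% CI -0.76 to 0.00, adjusted p = 0.12). With normexp it was called lower, at -0.14 (adjusted p = 0.026), with 16 added to each signal it was -0.19 (adjusted p = 0.079), and without scrambled replicate 2, its highest array, it was -0.24 (adjusted p = 0.22). Its point estimate lies between those of 2 called Gria3 probes. The differences between any 2 Gria3 probes on the same array overlapped between the groups, so no probe of the gene was separated from another.

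Grin2a encodes GluN2A, the glutamate-binding NMDA subunit that becomes prominent as synapses mature. Its brighter probe, A_43_P11470, had levels of -0.67, -1.04, -0.98 and -1.17 on the Sirt6 shRNA arrays, against -0.42, -0.62, -0.44 and -0.56 on the scrambled arrays. The groups did not overlap, but Sirt6 shRNA replicate 1 came within 0.05 of the lowest scrambled array. The difference was -0.45 ± 0.11 (adjusted p = 0.015), or 73.0% of the scrambled signal.

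The other Grin2a probe, A_44_P505902, had levels of -1.47, -1.76, -1.77 and -1.85 on the Sirt6 shRNA arrays, against -1.16, -1.42, -1.26 and -1.32 on the scrambled arrays. Replicate 1 was again the highest Sirt6 shRNA array and again lay just below the lowest scrambled one. The difference was -0.42 ± 0.093 (adjusted p = 0.012), or 74.7% of the scrambled signal. These probes lie within 1 stretch of chromosome 10 and share their target transcript, so they are 2 readings of 1 gene and not independent replicates.

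**Figure D2:**
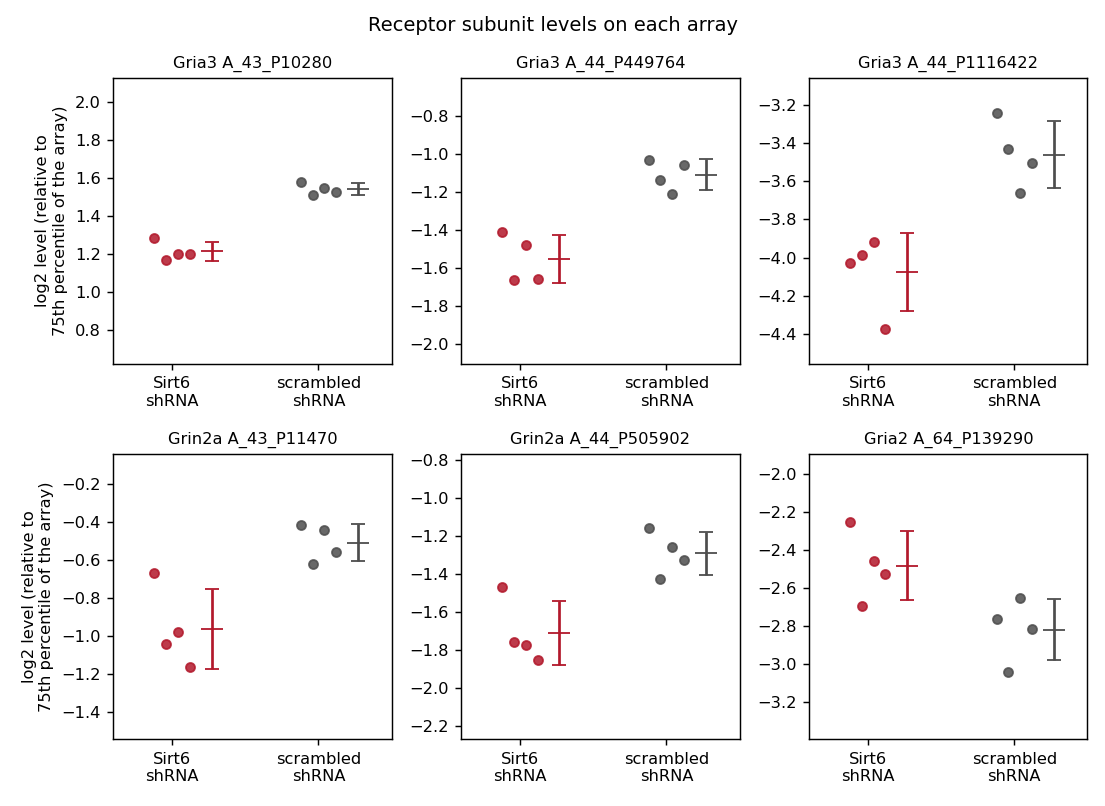
Log2 level relative to the array's 75th percentile on each array, for the 5 called receptor probes and for Gria2, with the mean and SD of each group beside the points (n = 4 each). For Gria3 and Grin2a every Sirt6 shRNA array lies below every scrambled array, and for Gria2 the groups overlap. Every panel spans the same number of log2 units.

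Scaling mattered for these calls. When each array was scaled on its E1A spike-in probes instead of its 75th percentile, the junction probe of Gria3 alone was still called, at -0.54 (adjusted p = 0.012). The other 4 probes kept their sign, with Gria3 at -0.25 (adjusted p = 0.094) and -0.37 (adjusted p = 0.055) and Grin2a at -0.38 (adjusted p = 0.062) and -0.35 (adjusted p = 0.062). Over the array, spike-in scaling called 3878 probes against 8129, 62.2% of them higher, where the main scaling had 49.5% and median centring 33.5%.

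Gria2 encodes GluA2, the subunit whose edited form keeps most AMPA receptors impermeable to calcium. Its probe, A_64_P139290 at chr2:172265169-172265228, had levels of -2.25, -2.69, -2.46 and -2.53 on the Sirt6 shRNA arrays, against -2.77, -3.04, -2.65 and -2.82 on the scrambled arrays. Sirt6 shRNA replicate 2 lay below scrambled replicate 3, so the groups overlapped by that pair. The difference of 0.34 ± 0.11 narrowly missed the threshold (95% CI 0.08 to 0.59, adjusted p = 0.055). It passed in 8 of 20 alternative settings. Those included omitting Sirt6 shRNA replicate 2 (0.41, adjusted p = 0.031) or scrambled replicate 3 (0.39, adjusted p = 0.048). It did not pass without Sirt6 shRNA replicate 1 (0.26, adjusted p = 0.115) or without scrambled replicate 2 (0.26, adjusted p = 0.121). The probe was dim, at a mean signal of 59.5 with the Sirt6 shRNA and 45.8 with the scrambled shRNA. With normexp the difference was 0.15 (adjusted p = 0.038).

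Gria1 encodes GluA1, the subunit most tied to activity-dependent delivery of receptors to synapses. Probe A_44_P1160134 had levels of 0.65, 0.68, 0.61 and 0.67 with the Sirt6 shRNA, against 0.60, 0.57, 0.61 and 0.48 with the scrambled shRNA, a difference of 0.09 ± 0.042 (adjusted p = 0.16). Probe A_43_P15761 is like the Gria3 junction probe in sequence, with 31 of 37 aligned bases the same. It had levels of -0.36, -0.44, -0.41 and -0.55, against -0.60, -0.62, -0.41 and -0.71 in scrambled. Its difference was 0.15 ± 0.073 (95% CI -0.02 to 0.31, adjusted p = 0.17). Both Gria1 probes overlapped between groups and were not called.

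Gria4 encodes GluA4, a subunit with fast kinetics found mainly in interneurons and in early development. The probe for transcript variant 3, A_42_P736258, had levels of 2.01, 2.02, 1.99 and 2.21 with the Sirt6 shRNA, against 2.12, 2.10, 2.15 and 2.16 with the scrambled shRNA. Sirt6 shRNA replicates 1 to 3 lay below all scrambled arrays and replicate 4 above them. The difference of -0.08 ± 0.054 was not called (adjusted p = 0.32), and without replicate 4 it was -0.13 (adjusted p = 0.048). The probe for variant 1, A_44_P323349, differed by -0.02 ± 0.082 (95% CI -0.21 to 0.17, adjusted p = 0.86).

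Grin1 encodes GluN1, without which no NMDA receptor reaches the surface. Its bright probe A_44_P536333 had levels of 2.43, 2.38, 2.48 and 2.57 with the Sirt6 shRNA, against 2.43, 2.42, 2.36 and 2.47 with the scrambled shRNA. The groups overlapped in part, with Sirt6 shRNA replicates 3 and 4 above all scrambled arrays and scrambled replicate 3 below all Sirt6 shRNA arrays. The difference of 0.05 ± 0.050 had a 95% CI of -0.07 to 0.17 (adjusted p = 0.49). A difference as large as the -0.45 of Grin2a lies outside that interval. The dim probe for predicted variant X1, A_44_P1103287, was well above background on 3 of 4 Sirt6 shRNA and 4 of 4 scrambled arrays and differed by 0.22 ± 0.22 (adjusted p = 0.48). Without Sirt6 shRNA replicate 1, its lowest array, it differed by 0.44 (adjusted p = 0.040).

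Among the other GluN2 genes, Grin2b encodes the subunit that dominates early in life and slows the receptor's closing. Its probe had levels of -2.96, -3.02, -3.31 and -3.02 on the Sirt6 shRNA arrays, against -2.99, -2.96, -2.77 and -3.09 on the scrambled arrays. The groups overlapped, with replicate 3 lowest under the Sirt6 shRNA and highest under the scrambled shRNA. The difference was -0.13 ± 0.096 (95% CI -0.35 to 0.09, adjusted p = 0.36).

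Grin2c, a subunit best known from the cerebellum and from astrocytes, had differences of 0.00 ± 0.086 (adjusted p = 0.98) and -0.16 ± 0.093 (adjusted p = 0.23) over its 2 probes. Grin2d, a subunit of early development and interneurons with very slow kinetics, had differences of -0.13 ± 0.073 (A_64_P118192, adjusted p = 0.22), 0.03 ± 0.057 (A_44_P1100966, adjusted p = 0.75) and -0.08 ± 0.10 (A_44_P1081810, adjusted p = 0.57). The first passed without scrambled replicate 3 (-0.20, adjusted p = 0.042). None of these 5 probes was called.

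Grin3a encodes a glycine-binding subunit that lowers the calcium flux of receptors holding it. Its brighter probe, A_64_P154352, had levels of -1.41, -1.51, -1.43 and -1.47 with the Sirt6 shRNA, against -1.24, -1.51, -1.53 and -1.54 with the scrambled shRNA. The means were equal to 2 decimals (-1.45 in both groups, 95% CI of the difference -0.17 to 0.17, adjusted p = 1.00), although scrambled replicate 1 stood above the other arrays. The second probe, A_44_P1362220, was well above background on 3 arrays of each group and differed by 0.10 ± 0.22 (95% CI -0.41 to 0.60, adjusted p = 0.77).

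Differences between 2 genes on the same array do not depend on how arrays were scaled, so 4 subunit pairs were set side by side, each gene by its brightest probe and with no test. The Grin2a minus Grin2b value was 2.29, 1.98, 2.34 and 1.85 on the Sirt6 shRNA arrays, against 2.57, 2.34, 2.33 and 2.53 on the scrambled arrays. Its mean was 0.33 lower with the Sirt6 shRNA (shift of -0.33). The groups overlapped, since Sirt6 shRNA replicate 3 lay just above scrambled replicates 2 and 3. Over 12 alternatives this shift ranged from -0.40 to -0.23. The Grin2b probe was dim, at a mean signal of 39.3 with the Sirt6 shRNA and 41.8 with the scrambled shRNA. Gria1 minus Gria2 was 2.91, 3.37, 3.07 and 3.20 with the Sirt6 shRNA, against 3.37, 3.61, 3.27 and 3.30 with the scrambled shRNA, a shift of -0.25 with overlap, which was -0.16 with 16 added to each signal and -0.10 with normexp. The shift was 0.00 for Grin2d minus Grin2b and -0.05 for Grin3a minus Grin1, each smaller than the SD within groups. Single arrays moved both: without scrambled replicate 3 the first was -0.13, and without scrambled replicate 1 the second was 0.02.

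**Figure D3:**
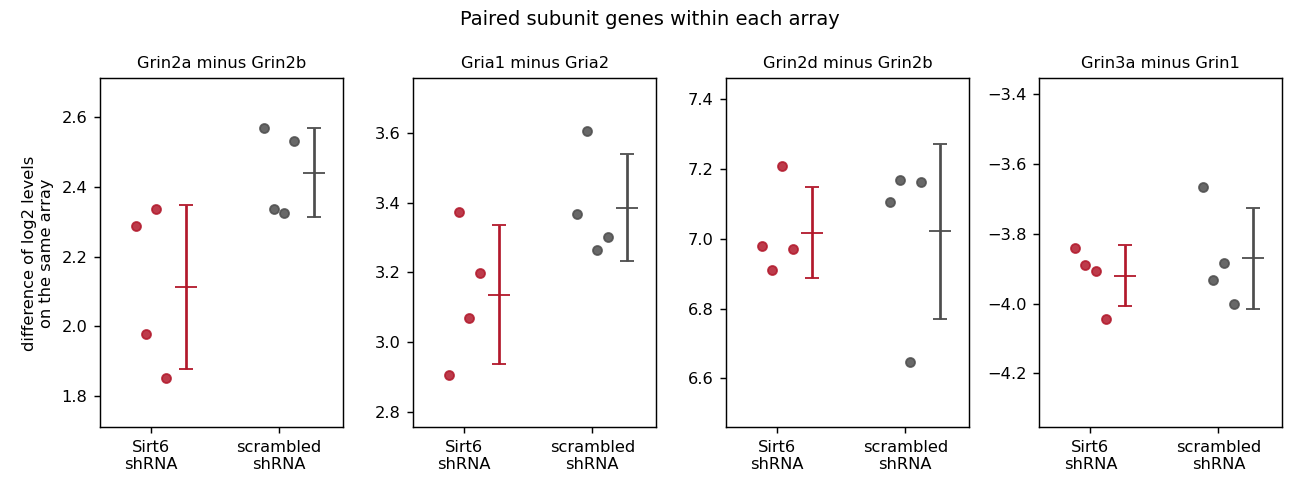
Difference of log2 levels of 2 receptor genes on the same array, with the mean and SD of each group beside the points (n = 4 each). The groups overlap in all 4 panels, with mean shifts of -0.33 for Grin2a minus Grin2b and -0.25 for Gria1 minus Gria2. Only differences between arrays carry meaning, since each probe has its own efficiency.

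The proteins that assemble, anchor and move these receptors were followed through 3 lists, each gene by its brightest probe. Of 58 tested genes in all, 13 were called higher and 11 lower, 41.4% against the 29.5% of all genes given above, and the median difference was -0.04. The lists were chosen with earlier results of these data known, so this share cannot be taken as an excess of change among partner genes. The directions were mixed in each list.

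Among the auxiliary and assembly proteins of AMPA receptors, 5 of 16 tested genes rose and 3 fell (50% called, median -0.03). Frrs1l, needed for AMPA receptor assembly in the endoplasmic reticulum, had levels of -3.88, -4.09, -3.81 and -3.83 with the Sirt6 shRNA, against -3.12, -3.05, -3.00 and -3.50 with the scrambled shRNA. It fell by 0.74 on the log2 scale, with no overlap (adjusted p = 0.0029). The fall was 0.48 with 16 added to each signal and 0.26 with normexp. Prrt1, a membrane protein found with AMPA receptors, fell too (-0.42, adjusted p = 0.00060). Cacng3, a transmembrane AMPA receptor regulatory protein that speeds receptors to synapses, rose by 0.36 (adjusted p = 0.0025), and Shisa7, a membrane protein of the same interactome, rose by 0.28 (adjusted p = 0.010).

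Among AMPA scaffold, trafficking and editing genes, 2 of 20 rose and 4 fell (median -0.06). The called share of 30% was near the 29.5% of all genes. Arc, an immediate-early gene whose protein drives AMPA receptors into endosomes, had levels of -0.80, -0.72, -0.85 and -0.78 on the Sirt6 shRNA arrays, against 0.75, 1.17, 1.30 and 1.32 on the scrambled arrays. Scrambled replicate 1 was the lowest of its group, yet the groups stood far apart, with a difference of -1.92 ± 0.12 (adjusted p = 5.84e-05). Nptx2, a secreted pentraxin that clusters AMPA receptors, fell (-0.34, adjusted p = 0.00055), as did Nsf, an ATPase that binds GluA2 (-0.31, adjusted p = 0.0039). Grip2, a scaffold for GluA2 and GluA3, rose (0.28, adjusted p = 0.0072). With spike-in scaling Arc was still called, while Nptx2 at -0.27 (adjusted p = 0.079), Nsf at -0.24 (adjusted p = 0.16) and Grip2 at 0.35 (adjusted p = 0.064) were not.

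Among NMDA scaffold, modulator and trafficking genes, 6 of 22 rose and 4 fell (45.5% called, median 0.06). Ephb2, a receptor tyrosine kinase that associates with NMDA receptors, rose by 0.58 (adjusted p = 0.014) on its brightest probe. That probe was dim, and with normexp its difference was 0.08 and was not called (adjusted p = 0.12). With 16 added to each signal it was 0.27 (adjusted p = 0.0098). A second Ephb2 probe, A_44_P342858, was well above background on 4 of 4 Sirt6 shRNA arrays and 0 of 4 scrambled arrays, so it was tested only through the arrays where it is high. Its signal was at least 2.80-fold higher, set against the lowest signal well above background on each scrambled array or the probe's own if higher. This bound was not tested. Rasgrf1, a calcium-sensitive activator of Ras that binds GluN2B, rose by 0.40 (adjusted p = 0.0045). Apba1, an adaptor in the transport of GluN2B vesicles, fell (-0.43, adjusted p = 0.0012, and -0.22 with normexp), while its second probe, at -0.38, was not called (adjusted p = 0.081). The postsynaptic scaffold Dlgap2 fell as well (-0.34, adjusted p = 0.0079). With spike-in scaling Dlgap2 was at -0.26 and no longer called (adjusted p = 0.16).

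**Figure D4:**
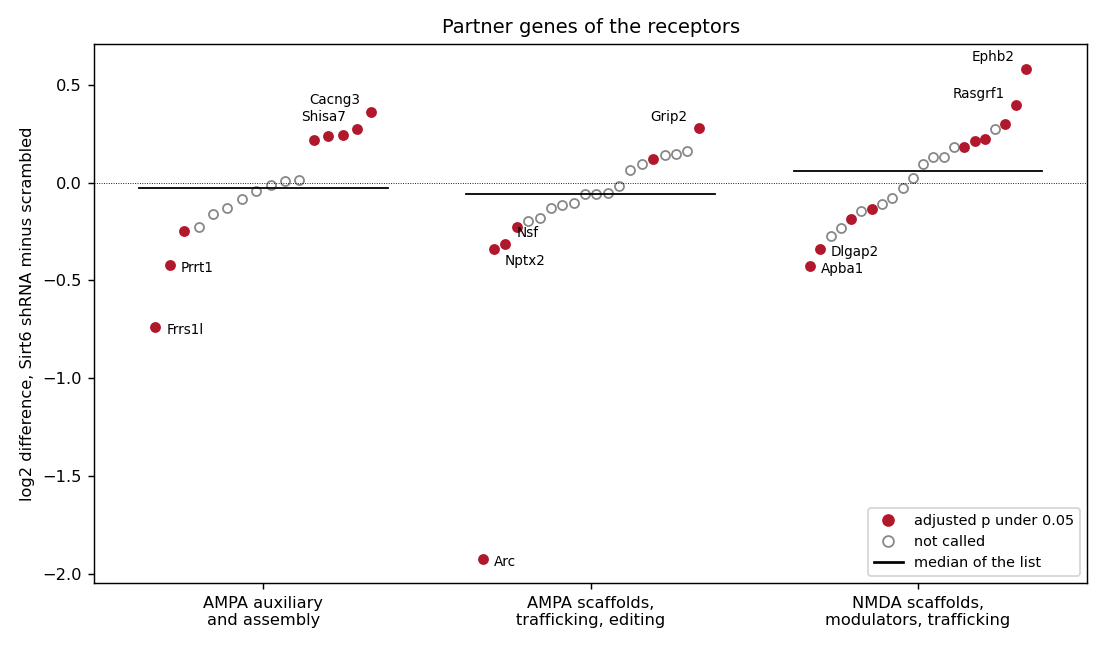
Log2 difference, Sirt6 shRNA minus scrambled shRNA, for the 58 tested partner genes in 3 lists, ordered by size within a list. Filled red points passed an adjusted p of 0.05 and black lines are list medians, which lie between -0.06 and 0.06 while called genes lie on both sides of 0, with Arc lowest at -1.92.

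Markers of the cell types these cultures could hold are read against the same array-wide shares of 15.1% of genes called higher and 14.4% called lower, with a median of 0.02. All 11 pan-neuronal markers were tested, with 5 higher and 1 lower (median 0.13). Their summed processed signal was 55317 to 61414 with the Sirt6 shRNA, against 51907 to 56683 with the scrambled shRNA. These sums, and those of the other cell types below, were not scaled between arrays. Of the excitatory markers, 6 of 7 were tested and Tbr1 was well above background on 0 of 8 arrays. The other 6 had 2 higher and none lower (median 0.03), a called share near the 29.5% of all genes, with sums of 19476 to 20810 against 18401 to 19288. Of the 6 GABAergic markers 4 were lower and none higher (median -0.27), with sums of 36552 to 41531 against 43029 to 47895.

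All 10 astrocyte markers were tested too. Of these, 8 were lower and none higher (median -0.39), and their sums of 87619 to 98396 with the Sirt6 shRNA lay below the 124538 to 132394 of the scrambled arrays. Oligodendrocyte lineage markers had 1 higher and 2 lower of 9 (median -0.05), also near the share of all genes, with sums of 13897 to 14804 against 15863 to 16532. Microglial markers had 3 lower and none higher of 8 (median -0.55), with overlapping sums of 6344 to 11972 against 8657 to 11718. Endothelial and fibroblast markers had 2 higher of the 4 tested out of 7 (median 0.11), with sums of 5354 to 5879 against 4097 to 4718. The 2 higher were the collagen genes Col1a1 (0.20, adjusted p = 0.030) and Col1a2 (0.36, adjusted p = 0.014). The endothelial gene Pecam1 was at -0.46 and not called (adjusted p = 0.080), and Dcn was at 0.01 (adjusted p = 0.96). Cldn5, Flt1 and Lum were not kept. In bulk RNA, fewer cells of a type and less RNA per cell cannot be told apart, and the part of these marker values in the Gria3, Grin2a and other receptor values was not tested.

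The 3 genes whose profile over the 8 arrays lay nearest to that of the Gria3 junction probe, by root mean square difference of mean-centred log2 levels, were the transcripts ENSRNOT00000006961 (0.079) and ENSRNOT00000039400 (0.094), named here as in the files, and Pitpnc1 (0.099), which encodes a phosphatidylinositol transfer protein. Their differences were -0.66, -0.51 and -0.52, against -0.62 for Gria3. This ranks likeness over 8 arrays of 2 groups, so genes of similar group difference come first.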

How the data were processed

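Total RNA was hybridised to 8 one-colour arrays, 4 per group, grouped and numbered by the labels. The deposited spot intensity values came from Agilent Feature Extraction 11.5.1.1 (per the file headers), which had subtracted background without normalizing between arrays. The authors' deposited table of log2 values equalled the log2 processed signal of the same array minus a constant (SD of the difference at most 0.0029, column medians -3.70 to -3.59). Each column's 75th percentile was 0.0075 to 0.01, so that constant was nearly the one of the main scaling. Those values served as an alternative that could differ little from the main fit. Control and outlier spots were left out, log2 values of a probe's spots were averaged, and the 75th percentile of an array's non-control probes was taken off. Probes stayed if well above background on at least 4 of 8 arrays. The test was limma's two-sided moderated test (limma 3.58.1, R 4.3.3), adjusted by Benjamini-Hochberg over the 28620 probes.

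Receptor probes were matched by the symbol in the files. For other genes, probes were named through a RefSeq table of GRCr8, used for names only (21109 matched by systematic name, 2736 by another accession, 5129 by symbol, 350 by an older symbol, and 16274 kept the name in the file). Members, lists and tests were chosen with earlier results of these data known. Every receptor probe is given. Of each partner list, up to 4 called genes of largest absolute difference are named, and 3 genes nearest to the receptor probe of largest called difference. Gsg1l and Kif17 were not matched and Cacng5 was not kept.

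On simulated data for this comparison (28620 probes, 200 changed) the fit recovered 17.9% of probes given a log2 change of 0.3, 71.6% of those given 0.6 and 92.4% of those given 1, and 7.63% of its calls were unchanged probes. The simulation changed far fewer probes than the 8129 called in the data, so these shares may not hold for this comparison. Precision is limited by the number of arrays. Alternatives were background correction, scaling, the filter, the pseudocount, the probe rule, eBayes options, array weights, a replicate block and leaving out each array. One probe sequence is not reported here.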

Additional observations from a re-analysis of the deposited data

Results flagged for a closer look

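In 3 of 50 groups of 4 values checked, 1 array stood apart from the other 3 by Dixon's criterion, where chance flags about 1 group in 20. The Gria4 probe A_42_P736258 was at 2.21 on Sirt6 shRNA replicate 4, against 1.99 to 2.02 on the other Sirt6 shRNA arrays. The Grin3a probe A_64_P154352 was at -1.24 on scrambled replicate 1, against -1.54 to -1.51 on the other scrambled arrays. The Grin2d minus Grin2b value was 6.65 on scrambled replicate 3, against 7.10 to 7.17 on the other scrambled arrays.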

How the results depend on the processing

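The 5 called Gria3 and Grin2a probes kept their calls in every alternative that tested them, except spike-in scaling, which called 1 receptor probe (1 lower), 9 partner genes (5 higher, 4 lower) and 3878 probes in all (2413 higher, 1465 lower). Median centring called 2310 probes and 7 partner genes higher. With the brightest probe per gene only, 2 receptor probes were called, both lower, as 10 entered. One receptor probe, Gria2, became called higher under normexp (0.15), the filter on all 8 arrays (0.34), 16 added before log2 (0.25), trend and robust eBayes (0.34) and array weights (0.39). Normexp also called the fourth Gria3 probe lower (-0.14), making 7 called with 6 lower. With the replicate block Gria2 was called higher at 0.34 (adjusted p = 0.022), also 1 receptor probe higher. Replicate numbers were not taken as pairs. Same-numbered deviations correlated at 0.059, 0.15, 0.14 and 0.020 for replicates 1 to 4, and 2 of 4 numbers were their arrays' best match. These values cannot exclude pairing. Each replicate number was also the array's column on the slide, so the replicate block was a slide-column block too. Leaving out each array in turn gave 5 to 8 called receptor probes and 0 to 2 called higher, with the high values without scrambled replicate 3, where Gria1 A_43_P15761 was called at 0.21 (adjusted p = 0.045) beside Gria2 and Grin2d. No call changed sign. Where these settings changed a call, the cause was not tested. Dim probes limit what could be seen: the second probes of Grin1 and Grin3a had 95% intervals of about 1 log2 unit.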
